A study of Homo sapiens with 4 samples.

Results

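The nuclear lamina and its chromatin partners were followed through 10 genes: the lamin genes LMNA, LMNB1 and LMNB2, the inner nuclear membrane and chromatin-linking genes LBR, EMD, TMPO and BANF1, and the high-mobility-group genes HMGB1, HMGB2 and HMGB3. They were taken by name, and all 10 had a row among the 20263 Ensembl genes of the count table. MDA-MB-231, a triple-negative breast cancer cell line grown in DMEM with 10% serum, was exposed for 24 h to Neoribocic or to its solvent DMSO, and mRNA libraries were sequenced, 2 per group. The treatment protocol calls the compound Rib_CA, and no dose was found in the labels. Nothing says whether the 2 libraries of each group are separate cultures; if they are not, the p-values cover technical spread alone. A single line was studied.

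Lamins are intermediate filament proteins that form a mesh under the inner nuclear membrane. A-type lamins come from LMNA, while the B-type lamins of LMNB1 and LMNB2 keep a farnesyl anchor that holds them at the membrane. LBR, emerin (EMD) and the membrane-bound products of TMPO tie this mesh to chromatin, in part through the small DNA-bridging protein BANF1. HMGB proteins bend DNA in the nucleus, and HMGB1 also acts as an alarm signal outside the cell. Loss of LMNB1 and of HMGB2 is widely used to recognise cells that have left the cell cycle for senescence.

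Promoter sequence is shown for the genes whose changes carry the account: LMNB1 and HMGB3, which fell under every alternative tried, and EMD, which had the largest rise among the 10. The windows are RefSeq's, on build GRCh38.p14, and hold 250 bases before and 50 after a transcript start, written 5′ to 3′ on the strand of the gene. Capitals mark the motif CCAAT, known to bind NF-Y, on either strand, so that a box on the opposite strand appears as its reverse complement. They also mark TTTGAA, one form of the cell cycle homology region, an element of many genes repressed outside dividing cells.
LMNB1, plus strand, chr5:126776886-126777185: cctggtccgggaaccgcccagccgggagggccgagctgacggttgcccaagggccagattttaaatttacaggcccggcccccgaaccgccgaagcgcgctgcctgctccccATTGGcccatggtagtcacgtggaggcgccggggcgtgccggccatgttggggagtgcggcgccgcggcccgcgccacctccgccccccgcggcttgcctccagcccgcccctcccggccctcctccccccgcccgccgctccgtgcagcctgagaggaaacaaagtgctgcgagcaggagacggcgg
HMGB3, plus strand, chrX:150983085-150983384: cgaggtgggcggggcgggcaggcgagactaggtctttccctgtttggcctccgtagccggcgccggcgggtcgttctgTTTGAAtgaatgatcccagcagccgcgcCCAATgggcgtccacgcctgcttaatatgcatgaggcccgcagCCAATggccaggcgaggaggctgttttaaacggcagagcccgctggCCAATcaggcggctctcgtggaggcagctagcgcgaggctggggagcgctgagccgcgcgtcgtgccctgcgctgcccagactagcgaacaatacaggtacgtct
EMD, plus strand, chrX:154379045-154379344: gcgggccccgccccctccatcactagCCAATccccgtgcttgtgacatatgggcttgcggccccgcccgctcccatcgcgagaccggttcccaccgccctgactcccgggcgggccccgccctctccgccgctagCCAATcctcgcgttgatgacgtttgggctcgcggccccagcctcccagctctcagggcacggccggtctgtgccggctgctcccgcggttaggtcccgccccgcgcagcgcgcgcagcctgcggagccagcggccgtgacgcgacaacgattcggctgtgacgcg

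HMGB3 held 3 CCAAT boxes, beginning the nearest 55 and the farthest 144 bases before the start, and a TTTGAA 172 bases before it. EMD held CCAAT at 224 and 115 bases before the start, and LMNB1 had 1 on the opposite strand at 138. LMNB1 and HMGB3 each have a second RefSeq window with none of these motifs, that of LMNB1 at the annotated start of the gene, and the one shown was chosen for holding a motif. HMGB1 also held 3 CCAAT boxes in 1 of its windows, at 103, 59 and 28 bases, and TMPO held 2, at 47 and 15 bases in the first of its 2 windows, which overlap. Of 35116 RefSeq windows of this length 34.6% held CCAAT, 10.8% held it at least 2 times and 3.26% at least 3 times. Windows were found for 9 of the 10 genes, 16 in all, and 8 of these windows held CCAAT. HMGB2 had no window and so was not searched. Among E2F core motifs TTCCCGC was in 6.55% of all windows and in 2 of the 16, one of LMNA and that of BANF1. The core spelled TTGGCGC was in 3.04% of all windows and the one spelled TTCGCGC in 2.24%, and neither was in the 16. The cell cycle homology region TTTGAA was in 15.2% of all windows and in 3 of the 16, of LMNB2, HMGB1 and HMGB3, and its variant spelled TTCGAA was in 1.45% of all windows and in none of the 16. The motifs were searched on both strands, and within these windows no match overlapped one of another motif. The boxes thus stood in promoters of genes that rose and of genes that fell.

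Library totals were 41572094 and 43014212 counts for Neoribocic replicates 1 and 2, and 34774542 and 37754168 for DMSO replicates 1 and 2. The 10 genes had between 1389 and 39218 counts in any library, and all passed the filter on low counts. DMSO replicate 2 stood apart in that mitochondrial genes held 21.7% of its counts, against 5.76% to 8.68% in the other libraries. Of the line markers 5 were expected to be high and 5 to be low. The 5 high ones summed to 3767 and 3968 CPM (counts scaled to TMM library size) with Neoribocic, against 5101 and 6053 CPM with DMSO. All 5 of these were lower in both treated libraries, and CAV1 (-1.42), KRT18 (-0.80) and CD44 (-0.58) were called. With the length and GC correction 4 of the 5 were called lower, VIM (-0.80) and PLAU (-0.74) among them but not CD44 (-0.016). The 5 low ones summed to 28.2 and 29.6 CPM with Neoribocic, against 25.3 and 35.0 CPM with DMSO. Of the 3 low ones tested ERBB3 alone was called, higher by 1.08 on the log2 scale and by 1.25 with the correction. The part of the line markers in the results was not tested. Of other cell types, 1 of the 5 stromal markers (DCN) and 1 of the 4 leukocyte markers (CD3E) were at 0 in every library. The stromal markers summed to 8.55 and 8.93 CPM with Neoribocic, against 10.5 and 10.0 CPM with DMSO, most of it COL1A1. The 2 endothelial markers summed to 0.52 and 0.76 CPM with Neoribocic, against 1.44 and 0.88 CPM with DMSO. The leukocyte markers summed to 313 and 267 CPM with Neoribocic, against 158 and 341 CPM with DMSO, nearly all of it CD68. Of the exon bases of CD68 81.7% are shared with other genes on the same strand. Of all 13879 genes tested 2650 were higher and 2960 lower; upper-quartile scaling gave 3329 and 2532 and library totals 3168 and 2149, shifting the median log2 fold change by 0.12 and 0.17.

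With Neoribocic LMNA and EMD rose, LMNB1, TMPO and HMGB3 fell, and LMNB2, LBR, BANF1, HMGB1 and HMGB2 did not pass the threshold of an adjusted p of 0.05 (edgeR quasi-likelihood test, Benjamini-Hochberg adjustment over all genes tested). On simulated counts of this design, in which 200 genes were changed, more of the calls were false than that threshold allows. Far more genes were called in the real data, so the false share among these calls is not known. The background in this comparison was high: 19.1% of all genes were called higher and 21.3% lower, 40.4% in either direction. The shares among the 10 genes, 2 higher and 3 lower, were near that background and are no result about the set. Both Neoribocic libraries lay below both DMSO libraries in 7 of the 10 genes and above them in 2, against 37.3% and 37.8% of all genes tested, and BANF1 alone overlapped. The median log2 fold change of the 10 genes was -0.53, against 0.01 for all genes tested.

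**Figure D1:**
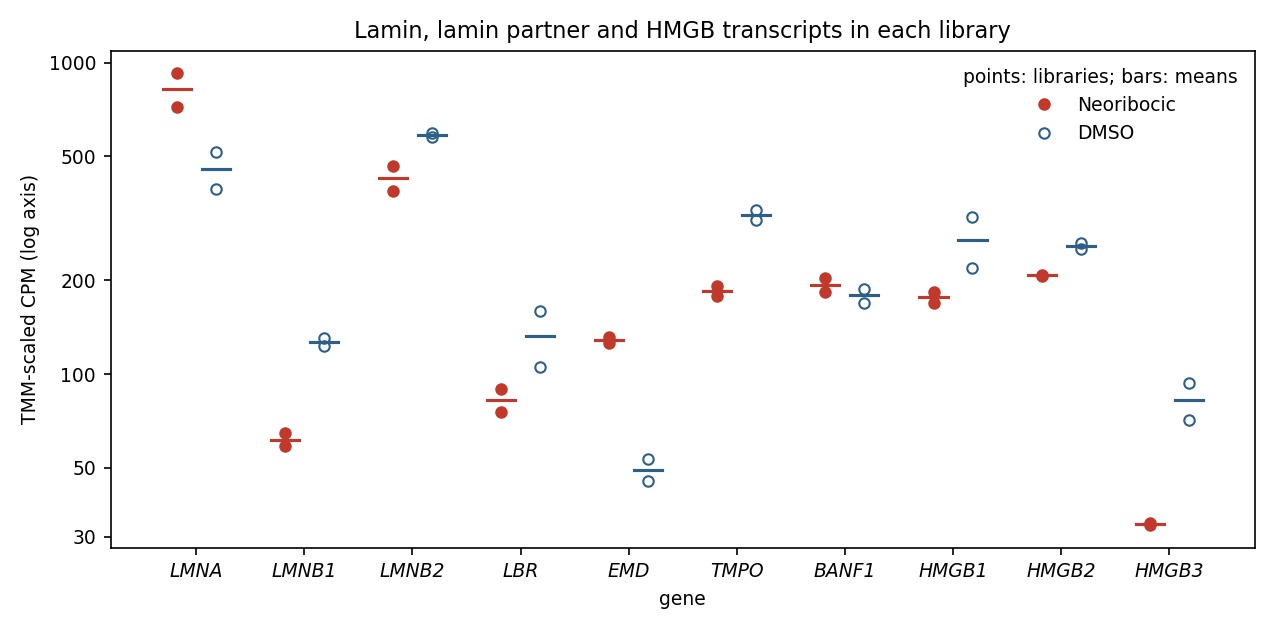
TMM-scaled CPM (log axis) of the 10 genes in each library, with Neoribocic as filled points, DMSO as open points and bars at the means of 2 libraries. HMGB3 averaged 33.0 CPM with Neoribocic and 82.5 CPM with DMSO, LMNB1 61.6 and 126.8 CPM, and EMD 128.5 and 49.3 CPM, with no overlap, while the libraries overlap for BANF1.

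Fold changes of all genes followed the length and base composition of their transcripts in these libraries. Across genes, which are not independent replicates, the Spearman correlation with log2 fold change was -0.40 for transcript length and 0.45 for GC content. Each of the 10 genes is therefore given also after a correction that removed a smooth surface of length and GC content from each library. The correction left 2 of the 5 calls, LMNB1 and HMGB3, and called LMNB2, BANF1 and HMGB2 lower in their place. It thus called 5 of the 10 genes lower and 0 higher, against 19.5% and 17.1% of all genes under it, 36.6% in either direction; at an unadjusted p under 0.05 it had 6 lower and 2 higher, and DESeq2 without it called 4 lower and 2 higher. The median log2 fold change of the 10 genes was -0.42 with the correction, against -0.008 for all genes tested. The source of the trend with length and GC content was not tested.

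**Figure D2:**
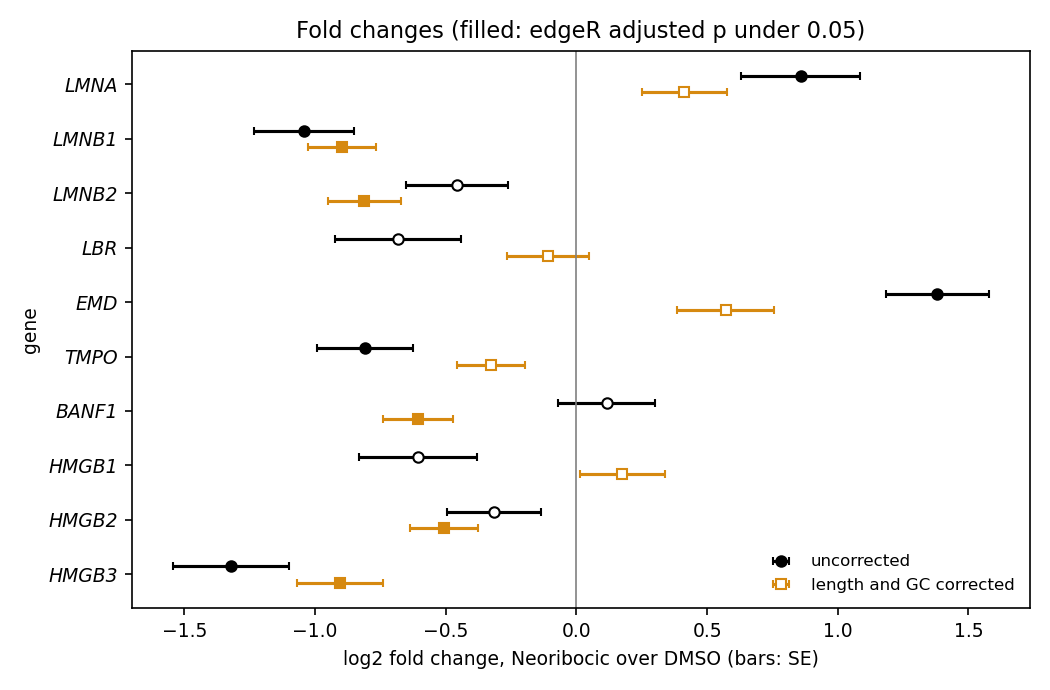
Log2 fold change of each gene, Neoribocic over DMSO, with its standard error, without correction (circles) and with the length and GC correction (squares); filled symbols passed an edgeR adjusted p of 0.05. LMNB1 and HMGB3 are filled in both and lie at or below -0.90, while HMGB1 crosses 0 after the correction.

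LMNB1 (ENSG00000113368; GRCh38 chromosome 5, 126776623 to 126837020) encodes lamin B1. It stood at 58.6 and 64.6 CPM with Neoribocic replicates 1 and 2, against 130.8 and 122.8 CPM with DMSO replicates 1 and 2. Both treated libraries were thus well below both controls, and the 2 within each group were close together. The log2 fold change was -1.04 ± 0.19 (SE, n = 2 per group), or 48.6% of the DMSO level, with an edgeR adjusted p of 0.00416. The call held in all 13 alternatives, with log2 fold changes of -1.11 to -0.87 and adjusted p-values of 1.12e-05 to 0.0402; the correction gave -0.90. In these bulk libraries fewer cells that transcribe a gene and less RNA per cell cannot be told apart.

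LMNA (ENSG00000160789; chromosome 1, 156082573 to 156140089) encodes lamins A and C, which these gene counts do not separate. It stood at 923 and 721 CPM with Neoribocic, against 391.8 and 515.5 CPM with DMSO. The groups did not overlap, but the libraries within each differed by more than those of LMNB1 did. LMNA rose by 0.86 ± 0.23 on the log2 scale, 1.81-fold (edgeR adjusted p = 0.0181; 0.00274 to 0.123 over the alternatives). The call was lost without Neoribocic replicate 1 (adjusted p = 0.123), without DMSO replicate 1 (0.0839) and with the correction, which brought it to 0.41 (0.0957). LMNA has a GC content of 61.5%, and the decile of genes with like GC content had a median log2 fold change of 0.57.

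LMNB2 (ENSG00000176619; chromosome 19, 2427638 to 2456996) encodes lamin B2. It had 465 and 388 CPM with Neoribocic, against 593 and 578 CPM with DMSO. The treated libraries were both lower, yet the log2 fold change of -0.46 ± 0.19 did not pass (edgeR adjusted p = 0.0902). With a GC content of 61.4%, close to that of LMNA, its corrected value was -0.81 and passed (0.00925), the 1 alternative of 13 in which it did; the adjusted p otherwise reached 0.330. Of its exon bases 5.58% are shared with genes on the same strand, among them TIMM13.

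Set against each other within a library, where scaling between libraries plays no part, LMNB1 and LMNA moved apart. The log2 ratio of LMNB1 to LMNA counts was -3.98 and -3.48 with Neoribocic, against -1.58 and -2.07 with DMSO. The ratio was therefore lower in both treated libraries, with an average difference of -1.903, or 3.74-fold, and of -1.32 with the correction. The exact two-sided permutation test gave p = 0.333, the smallest that 2 against 2 libraries allow. Leaving out 1 library in turn gave differences of -2.15 to -1.65. The log2 ratio of LMNB1 to LMNB2 was -2.99 and -2.59 with Neoribocic, against -2.18 and -2.24 with DMSO, an average difference of -0.58 (exact permutation p = 0.333) that the correction reduced to -0.085. LMNB1 had the larger fall of the 2 with and without the correction, by a narrow margin with it.

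**Figure D3:**
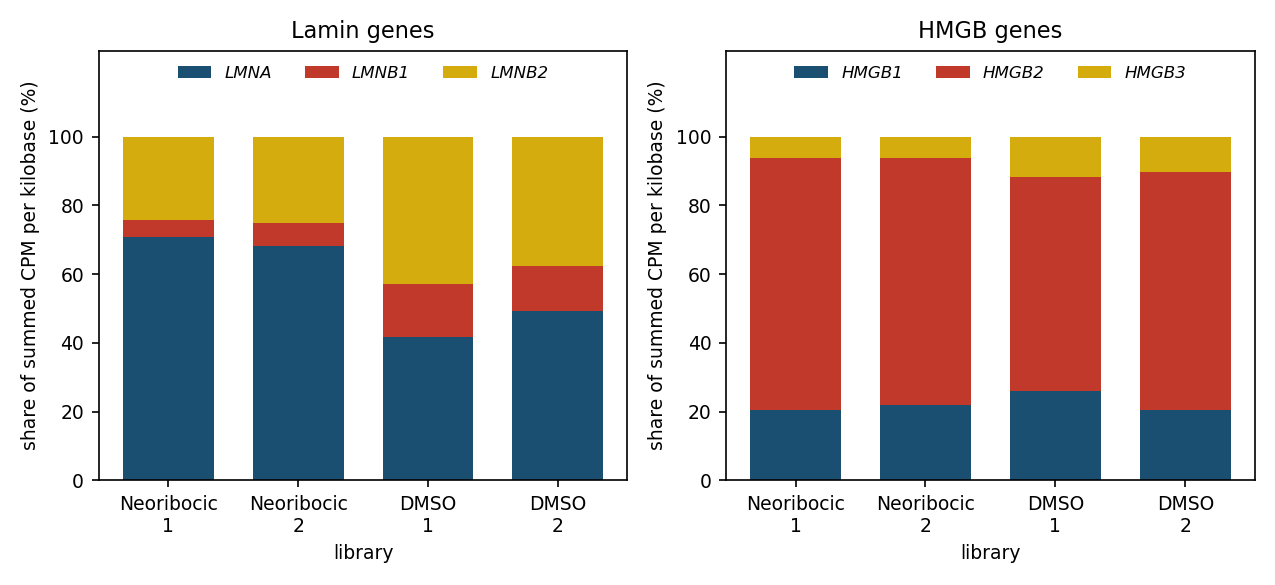
Share of each gene in the summed length-scaled level (CPM per kilobase of transcript) of the lamin genes (left) and of the HMGB genes (right), per library. LMNA takes 70.7% and 68.2% of the lamin sum with Neoribocic, against 41.6% and 49.3% with DMSO, and HMGB2 is the largest HMGB share in every library.

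Scaled for transcript length, LMNA made up 70.7% and 68.2% of the lamin sum with Neoribocic, against 41.6% and 49.3% with DMSO. LMNB1 made up 4.97% and 6.77% with Neoribocic, against 15.40% and 13.003% with DMSO. LMNB2 made up 24.3% and 25.1% with Neoribocic, against 43.0% and 37.7% with DMSO. The sum itself was 409 and 331 CPM per kilobase with Neoribocic, against 295 and 328 with DMSO, with the second treated library barely above the higher control. The make-up of the lamin transcripts differed between the groups by more than the libraries of a group differed from each other, and LMNA was the most abundant lamin per length in all libraries but DMSO replicate 1.

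Among the lamin partners EMD and TMPO moved in opposite directions. EMD (ENSG00000102119; chromosome X, 154379197 to 154381523) encodes emerin, the protein lost in X-linked Emery-Dreifuss muscular dystrophy. It had 125.8 and 131.2 CPM with Neoribocic, against 45.5 and 53.2 CPM with DMSO. The groups were far apart and each was tight. EMD rose by 1.38 ± 0.20 on the log2 scale, 2.60-fold (edgeR adjusted p = 0.00167; 9.11e-09 to 0.0561 over the alternatives). Its transcript is short, 1379 bases, and has a GC content of 60.0%, and the correction reduced the log2 fold change to 0.57, where the call was lost (0.0561). The deciles of genes of like length and like GC content had medians of 0.42 and 0.57.

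TMPO (ENSG00000120802; chromosome 12, 98515512 to 98550379) encodes the lamina-associated polypeptides 2, of which the alpha form is nucleoplasmic and the others sit in the membrane; the counts do not separate them. It had 178 and 192 CPM with Neoribocic, against 335 and 313 CPM with DMSO, again without overlap. TMPO fell by 0.81 ± 0.18 on the log2 scale, to 57.1% of the DMSO level (edgeR adjusted p = 0.00969; 4.97e-04 to 0.0952 over the alternatives). The call was lost without Neoribocic replicate 1 (0.0771) and with the correction (log2 fold change -0.33; 0.0952). Of its exon bases 8.30% overlap the antisense gene TMPO-AS1, and no source states how counting treated strand. The log2 ratio of TMPO to EMD counts, a pair chosen after the values were seen, was 0.50 and 0.55 with Neoribocic, against 2.88 and 2.56 with DMSO; the difference of -2.19 was -0.88 with the correction.

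LBR (ENSG00000143815; chromosome 1, 225401502 to 225428925) encodes the lamin B receptor, which binds B-type lamins and heterochromatin protein 1 and is also a sterol reductase. It had 75.7 and 89.4 CPM with Neoribocic, against 159.8 and 105.6 CPM with DMSO. The DMSO libraries differed widely, and the log2 fold change of -0.68 ± 0.24 missed the threshold (edgeR adjusted p = 0.0507). Its alternatives spanned adjusted p-values of 0.0278 to 0.610; LBR passed in 5 of them, without DMSO replicate 2 (0.0278; log2 fold change -0.94), with DESeq2 (0.0387), with no count filter (0.0382), with the replicate block (0.0435) and with halved counts (0.0475). Without DMSO replicate 1 the log2 fold change was -0.36 (0.294). Its GC content of 37.8% is in the lowest decile, whose median log2 fold change was -0.54, and the corrected value was -0.11.

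BANF1 (ENSG00000175334; chromosome 11, 66002079 to 66004149) encodes the barrier-to-autointegration factor, which cross-links chromatin when the envelope reforms after mitosis. It had 203.7 and 183.8 CPM with Neoribocic, against 169.4 and 188.1 CPM with DMSO, with overlapping groups. The log2 fold change was 0.12 ± 0.19 (edgeR adjusted p = 0.641). Its transcript is the shortest of the 10, 1155 bases, in a decile of genes whose median log2 fold change was 0.73, and the corrected value was -0.61 (0.0193), the reverse sign; this was the lowest adjusted p of its 13 alternatives, and the highest was 0.908. BANF1 has 5 named pseudogenes in GENCODE release 29. On either strand 5.83% of the 75-base stretches of its transcript also occur in other annotated transcripts, those of BANF1P3 and EIF1AD. Of its exon bases 5.96% overlap EIF1AD on the opposite strand.

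Without the correction HMGB3 had the largest and HMGB2, the usual marker, the smallest fold change of the HMGB genes. HMGB3 (ENSG00000029993; chromosome X, 150980509 to 150990775), best known from haematopoietic progenitors and overexpressed in many tumours, had 32.7 and 33.3 CPM with Neoribocic, against 93.7 and 71.3 CPM with DMSO. The treated libraries were nearly equal and less than either control. HMGB3 fell by 1.32 ± 0.22 on the log2 scale, to 40.0% of the DMSO level (edgeR adjusted p = 0.00297). It passed in all 13 alternatives, with log2 fold changes of -1.50 to -0.90, the smaller change with the correction, and adjusted p-values of 1.03e-06 to 0.0278. GENCODE names 29 pseudogenes of HMGB3, but 1.20% of its 75-base stretches occur in another annotated transcript.

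HMGB2 (ENSG00000164104; chromosome 4, 173331695 to 173335125) encodes the HMGB protein most tied to proliferating cells. It had 208.3 and 206.4 CPM with Neoribocic, against 263.9 and 252.4 CPM with DMSO. The treated libraries were both lower by a small margin. The log2 fold change was -0.32 ± 0.18, 80.3% of the DMSO level, and did not pass (edgeR adjusted p = 0.185); it ran from -0.51 to -0.15 over the alternatives, passing only with the correction (-0.51; adjusted p = 0.0289) and reaching an adjusted p of 0.635. None of its 75-base stretches occurred in another transcript.

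HMGB1 (ENSG00000189403; chromosome 13, 30456704 to 30617597), the most widely expressed family member, had 169.6 and 183.7 CPM with Neoribocic, against 319.6 and 218.4 CPM with DMSO. As for LBR the control libraries were far apart. The log2 fold change of -0.61 ± 0.23 did not pass (edgeR adjusted p = 0.0601; 0.0298 to 0.427 over the alternatives). It passed without DMSO replicate 2 (-0.84; 0.0298) and with no count filter (0.0490), was -0.31 without DMSO replicate 1 (0.315), and was 0.18 with the correction, the opposite sign. GENCODE names 48 pseudogenes of HMGB1, and 11.0% of the 75-base stretches of its transcript occur in other annotated transcripts, so its counts are less certain than those of HMGB2.

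Per transcript length HMGB2 was the largest of the HMGB genes in every library, at 73.3% and 71.8% of their sum with Neoribocic, against 62.3% and 69.1% with DMSO. These shares rest on 1 transcript per gene, of 5485 bases for HMGB1 and 1889 bases for HMGB2, and other isoforms were not tried. HMGB3 held 6.11% and 6.15% with Neoribocic, against 11.7% and 10.3% with DMSO, and the share of HMGB1 overlapped between the groups. The sum was 150.4 and 152.1 CPM per kilobase with Neoribocic, against 224.3 and 193.5 with DMSO. The log2 ratio of HMGB2 to HMGB1 was 0.30 and 0.17 with Neoribocic, against -0.28 and 0.21 with DMSO; these overlapped (exact permutation p = 0.667), and the average difference of 0.27 became -0.68 with the correction. The relative change of those 2 genes is thus not settled in direction by these libraries.

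**Figure D4:**
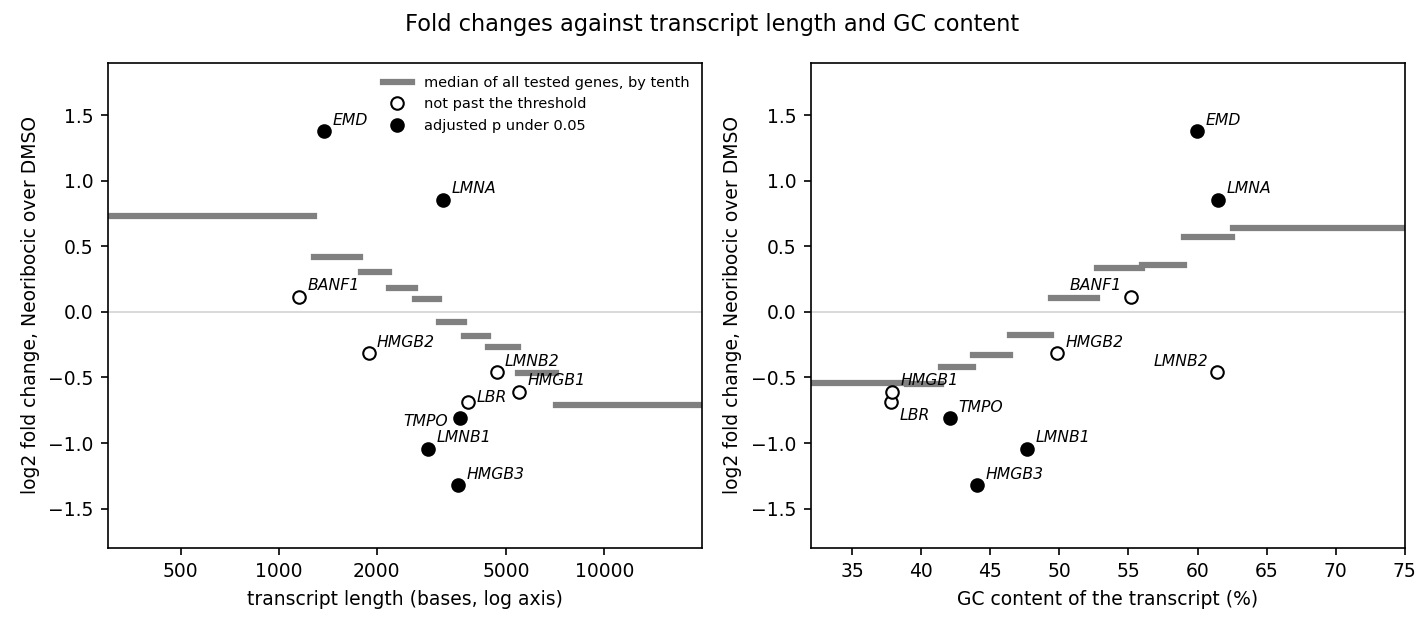
Log2 fold change, Neoribocic over DMSO, of the 10 genes against transcript length (left, log axis) and GC content (right); grey bars are medians of all tested genes by deciles of each property, and filled points passed an edgeR adjusted p of 0.05. LMNB1 and HMGB3 lie below the grey bars in both panels, whereas LBR and HMGB1 lie close to the bar of their GC content.

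Related lists are to be read against the 19.1% of all genes called higher and 21.3% lower. Of 19 genes of the inner nuclear membrane and of the LINC complex, which couples the nucleus to the cytoskeleton, 4 rose and 5 fell. The median log2 fold change was 0.11, against 0.01 for all genes, and with the correction -0.003, against -0.008. SYNE2 and SYNE1, which encode the giant nesprins of the outer nuclear membrane, fell by 2.65 ± 0.23 and 2.44 ± 0.30 on the log2 scale (edgeR adjusted p = 5.52e-04 and 0.00104). SYNE2 had 26.9 and 27.9 CPM with Neoribocic, against 200.5 and 144.3 CPM with DMSO. Their transcripts are very long, and with the correction the log2 fold changes were -1.38 and -1.22, both still past the threshold, as in every alternative tried. TOR1AIP1, the lamina-associated polypeptide 1, fell by 1.33 (adjusted p = 0.00366), with a corrected value of -0.39 that did not pass. NRM (nurim), an inner membrane protein of unclear function, rose by 1.42 ± 0.23, to 25.5 and 25.8 CPM with Neoribocic, against 8.54 and 10.6 CPM with DMSO, and kept its call in every alternative, with a corrected value of 0.74. TMEM43, an emerin-binding membrane protein also called LUMA, rose by 0.74, and SUN2, which anchors nesprins, by 0.59. Other genes on the same strand share 12.9% of the exon bases of TMEM43. The call of TMEM43 was lost without Neoribocic replicate 1 or DMSO replicate 2, and that of SUN2 without any 1 of the libraries, with the correction and with the replicate block (0.0616). The counts of 4 higher became 1 without Neoribocic replicate 1 or DMSO replicate 2 and 2 without either other library, and the 5 lower became 3 without Neoribocic replicate 1 or DMSO replicate 1.

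Of 5 genes for the enzymes that finish B-type lamins and prelamin A 1 rose and 1 fell. RCE1, the protease that trims the farnesylated tail, rose by 1.20 ± 0.24 on the log2 scale, and ZMPSTE24, which cuts prelamin A, fell by 0.76 ± 0.25 (edgeR adjusted p = 0.00615 and 0.0402). Both calls were lost with the correction, and that of ZMPSTE24 also without Neoribocic replicate 1 or 2 or DMSO replicate 1 (-0.50) and with upper-quartile or library-total scaling. Other genes on the same strand share 12.7% of the exon bases of RCE1. The list median was -0.42, and -0.27 with the correction.

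Of 7 tested kinases and phosphatases of lamina and BANF1 phosphorylation 5 fell, 1 rose and 1 did not pass, with a median of -0.93. The corrected median was -0.66. Without Neoribocic replicate 1, Neoribocic replicate 2 or DMSO replicate 1 the 5 lower calls became 1, 3 and 2. CDK1, whose kinase opens the lamina at mitosis, fell by 0.91 ± 0.20 (edgeR adjusted p = 0.00854), PRKCA by 0.95 (0.00512) and VRK2 by 1.01 (0.0124); without Neoribocic replicate 1 CDK1 (0.0561) and VRK2 (0.0815) lost their calls, VRK2 also without DMSO replicate 1 (0.0618). VRK1, the kinase that releases BANF1 from DNA, had 23.2 and 23.2 CPM with Neoribocic, against 48.9 and 39.3 CPM with DMSO, a fall of 0.93 (0.0124) that was lost with library totals and without Neoribocic replicate 1 or 2 or DMSO replicate 1. ANKLE2 of the membrane list, which opposes VRK1 at BANF1, fell by 0.78 (0.0151) and was lost in those same settings. PPP2R1A, the scaffold of phosphatase 2A, rose by 0.59 (0.0367), a call lost without any 1 of the libraries and with the replicate block (0.0557). PRKCA did not pass with the correction (-0.27). Of the exon bases of VRK1 6.92% are shared with other genes on the same strand.

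Of the 6 heterochromatin protein 1 and lamina tether genes edgeR called 0, with 0 higher and 1 lower at an unadjusted p under 0.05, and DESeq2 called 1, lower. With the correction edgeR called 1 higher and 1 lower: CBX5, which encodes HP1 alpha, at 0.71 (adjusted p = 0.0299), against -0.31 without it, and THAP7 at -0.78 (0.0154), against 0.21 without it; both were named after their values were seen. Without the correction CBX1, which encodes HP1 beta, was nearest, at -0.53 ± 0.20 (edgeR adjusted p = 0.0583). The list median was -0.34, and -0.10 with the correction.

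Among 16 other tested genes of HMG proteins 6 fell and 2 rose, with a median of -0.34, and of -0.26 with the correction. SMARCE1, an HMG-box subunit of SWI/SNF remodelling complexes, fell by 1.39 ± 0.19 on the log2 scale, BBX, an HMG-box factor of G1 to S progression, by 2.12 ± 0.29 and the nucleosome-binding HMGN5 by 1.08 ± 0.27 (edgeR adjusted p = 0.00138, 0.00167 and 0.0154). The corrected values of SMARCE1 and BBX were -0.75 and -1.15, both past the threshold. Of the exon bases of SMARCE1 19.8% are shared with other genes on the same strand. HMGN4 rose by 0.99 ± 0.21 (0.00735), to 87.8 and 91.1 CPM with Neoribocic, against 49.9 and 40.2 CPM with DMSO, and HMG20B, a subunit of the CoREST co-repressor complex, by 0.80 (0.0288), a value of -0.075 after the correction; its call was lost also without Neoribocic replicate 1 (0.45), DMSO replicate 1 or DMSO replicate 2, and that of HMGN5 without Neoribocic replicate 1 or 2 or DMSO replicate 1. HMGN2 had 300.5 and 277.0 CPM with Neoribocic, against 469.1 and 446.9 CPM with DMSO. It fell by 0.67 (0.0215), by 0.84 with the correction, though not when any 1 library was left out or with library totals (0.0982 the highest). HMGA1, the most abundant of the list, was at 5215 and 5083 CPM with Neoribocic, against 3875 and 4814 CPM with DMSO, and did not pass (0.437; log2 fold change 0.25, and -0.38 with the correction). Without Neoribocic replicate 1, Neoribocic replicate 2 or DMSO replicate 2 the 6 lower calls became 3, 2 and 3, library totals gave 3, and the 2 higher calls became 1 without Neoribocic replicate 1, DMSO replicate 1 or DMSO replicate 2.

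Of 13 tested genes of HMGB1 receptors and of the SET complex, which holds HMGB2, 3 rose and 1 fell, with a median of 0.51. The corrected median was 0.080. TLR4, a receptor of extracellular HMGB1, fell by 1.88 ± 0.24 (edgeR adjusted p = 0.00118), to 9.56 and 12.1 CPM with Neoribocic, against 42.5 and 37.5 CPM with DMSO, and its corrected value was -0.79. AGER, which encodes the receptor RAGE, rose by 1.70 ± 0.31 (0.00409) at low levels, 5.72 and 5.22 CPM with Neoribocic, against 1.89 and 1.46 CPM with DMSO, with a corrected value of 0.91. TLR9 rose by 2.21 ± 0.48 (0.00857), but 86.3% of its exon bases are shared with another gene on the same strand. HAVCR2 passed with 24 and 36 counts with Neoribocic, against 2 and 0 counts with DMSO (0.00760; 0.0503 without Neoribocic replicate 2). DESeq2 and upper-quartile scaling each gave 5 higher, and without DMSO replicate 1 there were 2 lower.

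Of 16 tested senescence markers other than the lamin and HMGB genes 8 rose and 1 fell, with a median of 0.83. With the correction that median was 0.48. The list holds secreted factors as well as cell cycle inhibitors, and those that rose with the smallest p were secreted. GDF15, a stress cytokine, rose by 2.64 ± 0.26 on the log2 scale, IL1A by 2.79 ± 0.30 and CXCL8 by 2.80 ± 0.34 (edgeR adjusted p = 6.13e-04, 7.55e-04 and 0.00126), and all 3 passed in every alternative; the corrected value of GDF15 was 1.69. CXCL8 had 74.4 and 62.5 CPM with Neoribocic, against 6.68 and 13.02 CPM with DMSO. IGFBP3 fell by 1.65 ± 0.22 (0.00131). CDKN1A, the p21 gene, had 58.3 and 44.6 CPM with Neoribocic, against 35.7 and 19.1 CPM with DMSO, a log2 fold change of 0.91 ± 0.32 (0.0548; 0.00668 to 0.448 over the alternatives, passing in 7 of 13). It was 1.43 without DMSO replicate 1, 0.54 without DMSO replicate 2 and 0.36 with the correction. CDKN2A had 3 and 4 counts with Neoribocic, against 0 and 0 with DMSO, and CDKN2B 0 in every library, so neither was tested; a count of 0 allows up to 3 counts. Without Neoribocic replicate 1 the 8 higher calls became 5, with the correction 6, and without DMSO replicate 1 the lower ones became 2.

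Of 14 proliferation genes 9 fell and 0 rose, 12 and 0 with the correction, and the median log2 fold change was -0.99. By DESeq2 the counts were 9 and 0 and at an unadjusted p under 0.05 they were 11 and 0. MKI67 fell by 3.76 ± 0.22, and the log2 fold changes of TOP2A and BUB1 were -3.20 ± 0.25 and -1.84 ± 0.21 (edgeR adjusted p = 4.80e-04, 4.94e-04 and 9.25e-04), and these calls held in every alternative. The part of a changed share of dividing cells in the lamin and HMGB values was not tested. LMNB1, at -1.04, lay close to the median of these genes, and HMGB2, at -0.32, was closer to 0 than the median. The 5 proliferation genes that did not pass were E2F1 (-0.54), CCNB1 (-0.48), PLK1 (-0.31), MCM2 (-0.03) and AURKB (0.18). With the correction the median was -1.14, LMNB1 was at -0.90 and HMGB2 at -0.51.

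**Figure D5:**
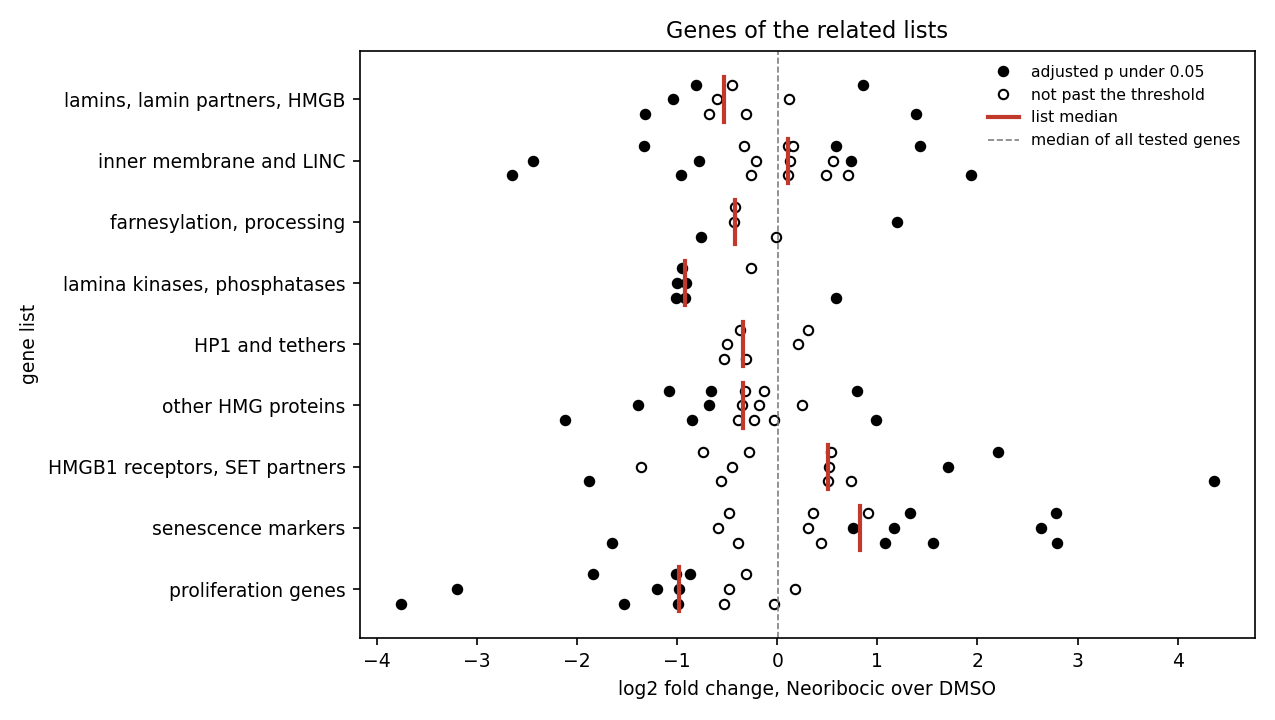
Log2 fold change, Neoribocic over DMSO, of each tested gene of the lamin, partner and HMGB set and of 8 related lists; filled points passed an edgeR adjusted p of 0.05, red bars are list medians and the dashed line is the median of all tested genes (0.01). Without the length and GC correction the senescence markers have a median of 0.83 and the proliferation genes of -0.99.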

How the data were processed

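Messenger RNA libraries from 1.4 µg of total RNA were made per the labels' protocols. The deposited table holds whole-number counts, not normalized by the authors, for human Ensembl IDs. Aligner, counter, strand setting and human build: not given in the sources used here. GRCm38 and mm10, both mouse builds, are named in the submitters' processing notes. Gene positions, transcript lengths and GC content came from GENCODE release 29 (GRCh38), 1 principal transcript per gene, found for 20224 of 20263 IDs. Small counts were mostly even (62.3% to 65.4% of counts from 1 to 19), and an alternative halved all counts.

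Groups were Neoribocic and DMSO, 2 libraries each. Genes passing filterByExpr were scaled by TMM and tested with edgeR 4.0.16 in R 4.3.3 (robust glmQLFit and glmQLFTest, group as the only term); Benjamini-Hochberg adjustment covered the 13879 genes that passed, with a threshold of 0.05. SE is the size of the log2 fold change over the square root of F. Levels are TMM-scaled CPM. Ratios used a prior count of 0.5. The correction entered a smooth surface of log2 length and GC content (mgcv 1.9.3) as offsets. The 13 alternatives were RLE, upper-quartile and total-count scaling, 2 other filters, DESeq2 1.42.0, the replicate block, each library left out, halved counts and the correction. The fit was tested on simulated data with 200 changed genes, where the share of false calls was above the threshold.

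The genes and lists were chosen with earlier results of these data known. Named list genes were up to 3 per direction with the smallest p. VRK1, ANKLE2, HMGN2, HMGA1, CBX1, CBX5, THAP7, the line markers, CDKN1A, CDKN2A and CDKN2B were named after their values were seen. So were the proliferation genes that did not pass.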

Additional observations from a re-analysis of the deposited data

How the results depend on the processing

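Among the 10 genes LMNB1 and HMGB3 kept their direction and call in all 13 alternatives. The count of genes called, 5610, ran from 2468 to 4536 when 1 library was left out, with 1001 to 2215 higher and 1467 to 2382 lower; of the 10 lamin, partner and HMGB genes 3 to 7 passed, against 5, and of the list genes 28 to 39, against 47. The lowest of each came without Neoribocic replicate 1. With the length and GC correction the log2 ratio of LMNB1 to LMNA differed by -1.32, that of LMNB1 to LMNB2 by -0.085 and that of HMGB2 to HMGB1 by -0.68, against -1.903, -0.58 and 0.27; the cause was not tested. Left-out libraries gave -2.15 to -1.65, -0.78 to -0.38 and 0.02 to 0.51. The correction also reversed BANF1 (-0.61), HMGB1 (0.18) and HMG20B (-0.075).

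With the replicate number as a block 5594 genes, 6 of the 10 genes and 46 list genes were called. Same-numbered libraries did not deviate together (correlation -0.075 across 13879 genes). With 2 libraries per group this value cannot tell whether they shared a culture, day or batch. By number, the LMNB1 to LMNA ratio differed by -2.40 and -1.41 and the HMGB2 to HMGB1 ratio by 0.57 and -0.040, the sign turning in number 2. Of the other values recomputed, 666 kept their direction and call or count, 51 lost a call, 16 gained one and 44 counts moved by over 1.5 times. Each group had 2 libraries, and a lower depth was not simulated.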
